A study of Mus musculus with 6 samples.

Results

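Circadian clock genes were examined in mammary epithelial cells isolated from the inguinal glands of pubertal female mice, with 10 genes chosen by name, *Arntl*, *Clock*, *Per1*, *Per2*, *Per3*, *Cry1*, *Cry2*, *Nr1d1*, *Nr1d2* and *Dbp*. All 10 were found in the deposited table, as 10 of its 61880 rows. Together with the other rows of the same assembled loci they made up 15 rows in 10 of 53912 loci, and all 10 loci passed the filter on low counts. The study compared 3 pooled samples from *fat-1* mice with 3 pooled samples from wild-type (WT) mice, all on the FVB/NJ background and 6 to 8 weeks old. Mammals cannot turn *n*-6 into *n*-3 polyunsaturated fatty acids (PUFA), and *fat-1* mice can in all tissues because they carry a desaturase gene taken from a nematode. Both genotypes were kept for life on the same modified AIN93G diet with 10% fat by weight from safflower oil, so the genotype is the only labelled difference between the groups. Each sample pools the glands of several mice, and the minced glands were digested for 18 h before the cells were released. The time of day at which glands were collected was not given in the sources used here. Counts summed to between 204539059 and 232148824 per sample, so counting error is small for all 10 genes, whose lowest locus count in any sample was 1033.

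The clock is a feedback loop of transcription factors that gives cells a daily rhythm. ARNTL (also called BMAL1) pairs with CLOCK and switches on genes that carry E-boxes, among them the *Per* and *Cry* repressors, the *Nr1d* genes and *Dbp*. PER and CRY proteins then block ARNTL and CLOCK, the NR1D proteins (REV-ERBs) repress *Arntl* through elements named ROREs, and DBP drives genes with D-boxes. In a rhythmic tissue, *Arntl* therefore peaks at about the opposite time of day to *Dbp*, *Nr1d1* and the *Per* genes.

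These elements can be read in the reference sequence before the start sites of the members. RefSeq (GRCm38.p6) gave 13 start-site windows for 9 of the 10 genes, with none for *Per2*, and the 250 bases before each start were searched on both strands. The E-box CACGTG was found in 2 of the 13 member windows, those of *Per1* (upstream start) and *Cry1*, and in 6.02% of the 32841 windows of all genes. The variant CACGTT was found in 3 of the 13 member windows, those of *Cry1*, *Cry2* and *Nr1d1*, and in 3.85% of all windows. The D-box TTATGTAA was found in 1 of the 13 member windows, that of *Per3* with 2 copies, and in 0.819% of all windows. No member window held TTACGTAA, the cyclic AMP response element TGACGTCA or the RORE pattern used, which were in 0.113%, 1.55% and 0.332% of all windows. That RORE pattern had to end in GGTCA. Variants with another ending, and elements at or after a start, would have been missed by this search. The windows of *Per1*, *Cry1* and *Per3* are shown because they hold matches to the E-box or the D-box, with every match in capitals. They lie before the upstream of the 2 *Per1* starts (chr11:69098699-69098948, plus strand; the E-box begins 166 bases before the start), before *Cry1* (chr10:85185055-85185304, minus strand; E-box at 60 bases and the CACGTT match, read on the other strand as AACGTG, at 79) and before *Per3* (chr4:151044666-151044915, minus strand; the nearer D-box at 158 bases).
Per1: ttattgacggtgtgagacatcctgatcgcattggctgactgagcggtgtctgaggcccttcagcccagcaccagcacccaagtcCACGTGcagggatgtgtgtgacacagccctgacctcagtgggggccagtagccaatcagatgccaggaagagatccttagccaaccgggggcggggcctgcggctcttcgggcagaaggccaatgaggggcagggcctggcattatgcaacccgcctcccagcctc
Cry1: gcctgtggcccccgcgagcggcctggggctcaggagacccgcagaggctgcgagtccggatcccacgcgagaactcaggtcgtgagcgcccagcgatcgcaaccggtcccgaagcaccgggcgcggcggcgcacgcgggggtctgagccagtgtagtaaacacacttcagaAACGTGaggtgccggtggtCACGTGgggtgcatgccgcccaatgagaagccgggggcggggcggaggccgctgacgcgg
Per3: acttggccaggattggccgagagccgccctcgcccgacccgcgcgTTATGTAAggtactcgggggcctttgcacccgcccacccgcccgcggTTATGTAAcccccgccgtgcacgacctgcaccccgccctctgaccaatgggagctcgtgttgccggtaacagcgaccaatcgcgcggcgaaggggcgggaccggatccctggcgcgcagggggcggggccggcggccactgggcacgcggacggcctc
A match describes these letters and does not show that a factor bound there.

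Levels were compared between genes as CPM (counts scaled to the normalized library size) per kilobase of annotated exon, taken over the whole locus. The members covered a wide range on this scale, from 34.3 ± 8.49 (SD, *n* = 6 samples of both genotypes) for *Nr1d1* down to 1.32 ± 0.640 for *Per3*. The repressors *Nr1d1* and *Nr1d2* (26.4 ± 2.59) and the period gene *Per1* (18.2 ± 1.37) were the highest. *Cry1* (10.4 ± 1.35), *Clock* (9.94 ± 1.06), *Cry2* (7.05 ± 1.01) and *Arntl* (5.53 ± 0.905) followed, and *Dbp* (2.85 ± 1.29), *Per2* (1.80 ± 0.693) and *Per3* were the lowest. In this order each gene exceeded the next in 6 of 6 samples, except *Nr1d1* over *Nr1d2*, *Cry2* over *Arntl* and *Arntl* over *Dbp* (5 of 6 each) and *Cry1* over *Clock* (4 of 6). The sample in which *Dbp* exceeded *Arntl* was WT sample 1, with 4.48 against 4.29 CPM per kb.

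**Figure D1:**
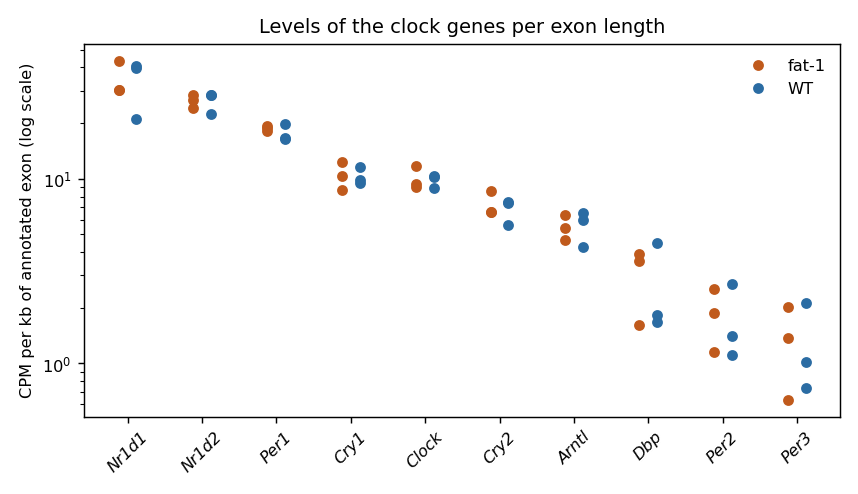
Levels of the 10 clock genes in CPM per kb of annotated exon (log axis), one point per pooled sample, *fat-1* in orange and WT in blue. *Nr1d1* is highest on average at 34.3 and *Per3* lowest at 1.32, and the points of *Dbp*, *Per2* and *Per3* are spread most within each genotype.

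The levels of the 10 loci did not separate the genotypes. In the quasi-likelihood fit of edgeR, with Benjamini–Hochberg adjustment over 24061 loci, 0 of the 10 passed an adjusted *p*-value of 0.05, as did 0% of all loci tested, and 0 of the 10 reached an unadjusted *p*-value of 0.05, beside 1.14% of all loci. The *fat-1* and WT samples overlapped for all 10 members, and 4.15% of all loci had groups that did not overlap. The median log2 fold change of *fat-1* relative to WT was 0.05 for the members and 0.0018 for all loci. DESeq2 and edgeR's exact test gave 8 and 6 loci past the adjusted threshold, none of them a member. With 3 samples against 3, a two-sided exact permutation test on log2(CPM + 1) cannot go below 0.1, and the members' values lay between 0.4 and 1.

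**Figure D2:**
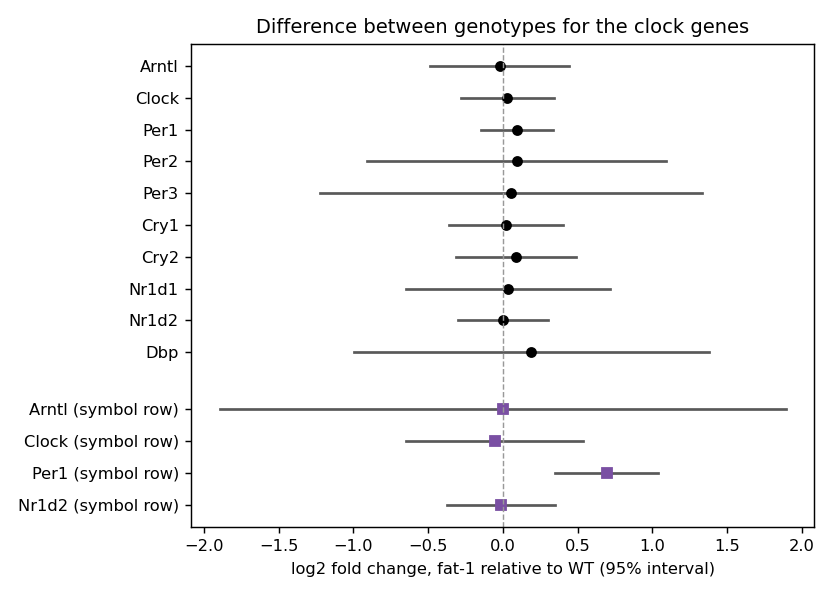
Log2 fold changes of *fat-1* relative to WT with 95% intervals, for the 10 locus sums (circles) and for the symbol rows of the 4 loci that had several rows (squares). All locus sums lie between −0.02 and 0.19 and their intervals cross 0, whereas the *Per1* row lies at 0.70.

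The activator *Arntl* (chromosome 7, 113207465 to 113314126, plus strand, GRCm38) had locus sums of 35.1, 48.0 and 40.8 CPM in pools 1 to 3 of the *fat-1* mice, against 32.3, 44.7 and 48.8 CPM in pools 1 to 3 of the WT mice. Sample 1 of each genotype was lowest, and the groups overlapped. The log2 fold change of *Arntl* was −0.02 (standard error 0.19; 95% interval −0.49 to 0.44; adjusted *p* = 1.00 by the quasi-likelihood test). Its partner *Clock* (chromosome 5, 76209868 to 76304792, minus strand) had 161, 128 and 124 CPM in the *fat-1* pools, against 141, 142 and 122 CPM in the WT pools. The *Clock* difference was 0.03 on the log2 scale (95% interval −0.28 to 0.34).

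Among the period genes, which encode the PER repressors, the locus of *Per1* (chromosome 11, 69095217 to 69109960, plus strand) was the steadiest of all 10 members. It had 106, 109 and 102 CPM in the *fat-1* pools, against 111, 93.4 and 92.8 CPM in the WT pools, a 1.19-fold range over the 6 samples. The genotypes differed by a log2 fold change of 0.09 (standard error 0.10; 95% interval −0.15 to 0.33). *Per2* (chromosome 1, 91415982 to 91459324, minus strand) had 14.8, 6.76 and 11 CPM in the *fat-1* pools, against 15.8, 8.25 and 6.49 CPM in the WT pools. *Per3* (chromosome 4, 151003652 to 151044665, minus strand) had 19.5, 6.12 and 13.2 CPM in the *fat-1* pools, against 20.4, 9.76 and 7.08 CPM in the WT pools. For both genes, sample 1 of each genotype was high and *fat-1* sample 2 and WT sample 3 were low, so that the spread lay within the genotypes. The 95% intervals of the log2 fold changes were wide, from −0.91 to 1.09 for *Per2* and from −1.22 to 1.33 for *Per3*.

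The cryptochrome genes, whose products repress together with PER, varied less. *Cry1* (chromosome 10, 85131700 to 85185064, minus strand) had 41.2, 34.6 and 28.9 CPM in the *fat-1* pools, against 38.5, 31.8 and 32.9 CPM in the WT pools. *Cry2* (chromosome 2, 92403646 to 92434043, minus strand) had 41.7, 41.9 and 54.0 CPM in the *fat-1* pools, against 47.4, 47.0 and 35.4 CPM in the WT pools. The highest sample of *Cry1* was *fat-1* sample 1 and that of *Cry2* was *fat-1* sample 3. Their log2 fold changes were 0.02 (standard error 0.16) and 0.09 (standard error 0.17).

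The REV-ERB genes encode nuclear receptors that repress *Arntl*. *Nr1d1* (chromosome 11, 98767932 to 98775333, minus strand) had 93.3, 93.4 and 133 CPM in the *fat-1* pools, against 125, 122 and 64.9 CPM in the WT pools. WT sample 3 was the lowest by far and *fat-1* sample 3 the highest, a 2.06-fold range, and the log2 fold change moved from 0.03 to −0.20 without WT sample 3 and to −0.16 without *fat-1* sample 3, passing the test in neither case. *Nr1d2* (chromosome 14, 18204054 to 18239127, minus strand) had 153, 130 and 145 CPM in the *fat-1* pools, against 154, 153 and 121 CPM in the WT pools, with a log2 fold change of 0.0024 (95% interval −0.30 to 0.30). *Nr1d1* shares 263 exon bases with *Thra*, the thyroid hormone receptor gene on the opposite strand, and whether strand was used in counting is not given in the sources used here. *Thra* had 47.6, 31.9 and 52.5 CPM in the *fat-1* pools, against 56.4, 46.2 and 29.1 CPM in the WT pools, and was lowest in the same sample as *Nr1d1*.

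*Dbp* (chromosome 7, 45705088 to 45710203, plus strand), a D-box activator that serves as an output of the loop, had 10.7, 4.81 and 11.8 CPM in the *fat-1* pools, against 13.4, 5.46 and 5.04 CPM in the WT pools. The high samples (*fat-1* samples 1 and 3, WT sample 1) and the low samples were found in both genotypes. The log2 fold change was 0.19 (standard error 0.49; 95% interval −1.0 to 1.38). *Dbp* shares 539 exon bases with *Sphk2* on the opposite strand, which had between 40.2 and 50.3 CPM, so part of the *Dbp* counts could be reads of *Sphk2*. *Cry2* and *Arntl* share 295 and 33 exon bases with antisense RNAs, *D930015M05Rik* and *Gm45355*, which had at most 0.519 and 0.0535 CPM.

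**Figure D3:**
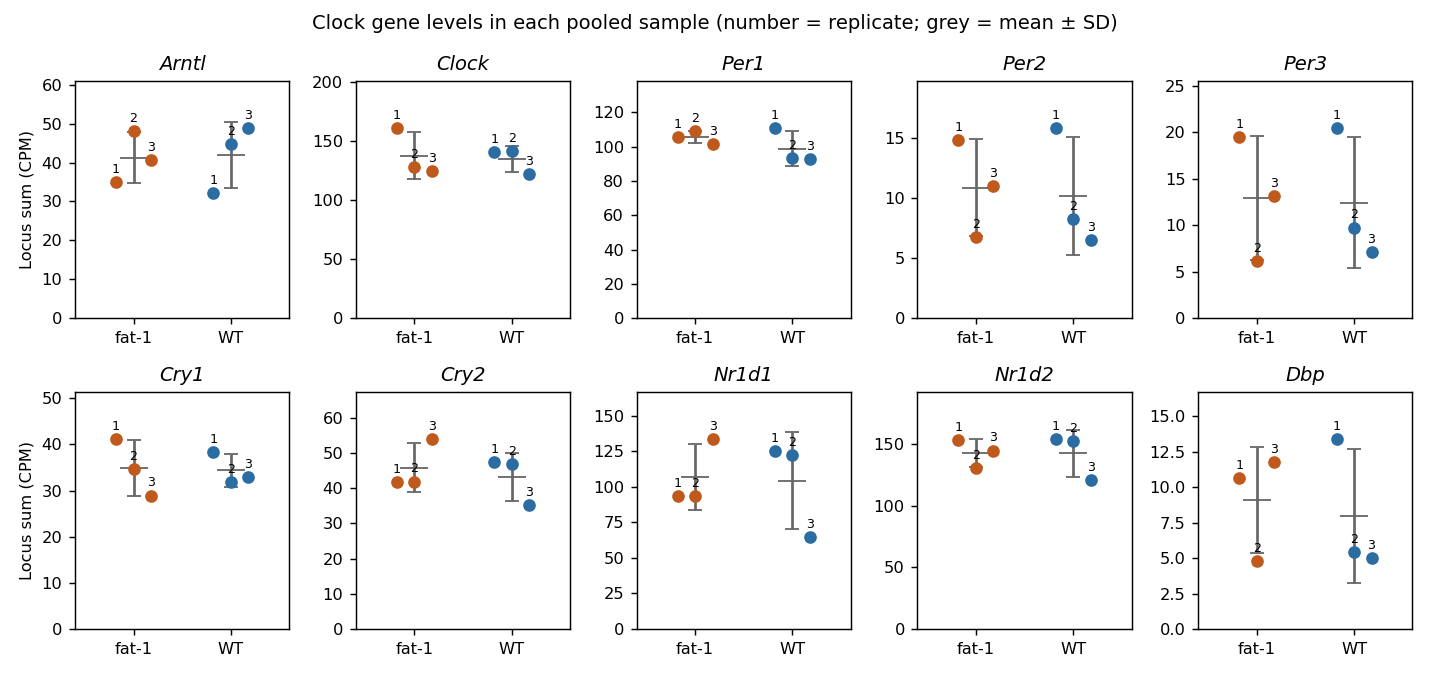
Locus sums of the 10 clock genes in CPM in each pooled sample, numbered by replicate, with the mean and SD of each genotype in grey (*n* = 3). The genotypes overlap in every panel, and *Per2*, *Per3* and *Dbp* show a 2.43-, 3.34- and 2.78-fold range over the 6 samples.

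In 4 of the 10 loci, *Arntl*, *Clock*, *Per1* and *Nr1d2*, the assembly had placed the counts in more than 1 row, one with the gene symbol and one without. The *Clock* locus also held a row for *Ube2n-ps1*, a pseudogene, with 0.542 to 1.12 CPM. The row with the *Per1* symbol had 92.9, 75.9 and 99.6 CPM in the *fat-1* pools, against 56.2, 54.0 and 55.6 CPM in the WT pools. All *fat-1* samples of this row were above all WT samples, which is the case in either direction for 5.26% of all rows tested. The log2 fold change of the *Per1* row was 0.70 (standard error 0.14) with an unadjusted *p*-value of 0.00265 and an adjusted *p*-value of 1.00 by edgeR's quasi-likelihood test. Of the 10 rows with a member's symbol it was the only one at or under 0.05 before adjustment, beside 2.21% of all 30683 rows in either direction and 1.07% higher in *fat-1*. DESeq2 gave the *Per1* row an adjusted *p*-value of 0.00588 with the same fold change, and it passed by no other test that was run. The direction rests on the genotype labels of the samples, which could not be checked against the transgene because the table holds no row for it.

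The row without a symbol in the *Per1* locus went the other way, with 13.4, 33.4 and 2.06 CPM in the *fat-1* pools, against 54.4, 39.6 and 37.0 CPM in the WT pools. The row with the symbol thus held 87.4%, 69.4% and 98.0% of the locus counts in the *fat-1* pools, against 50.8%, 57.7% and 60.0% in the WT pools. The groups did not overlap in this share, as in 8.34% of the 5525 loci with a row and a remainder to compare. In a limma fit of the log2 ratio of the row to the rest over those loci, the *Per1* ratio was higher by 2.83 in the *fat-1* samples (standard error 1.14; unadjusted *p* = 0.0532, adjusted *p* = 0.997). The difference was 1.63 without *fat-1* sample 3 and 3.83 without *fat-1* sample 2, with unadjusted *p*-values of 0.0447 and 0.0120 (adjusted *p* = 0.997 and 0.829 by limma). Without *fat-1* sample 1 or any 1 WT sample it ran from 2.67 to 3.03, with unadjusted *p*-values from 0.0915 to 0.125 by limma. Over those loci, 3.67% reached an unadjusted *p*-value of 0.05 and 0.0181% an adjusted one. For the whole locus, the log2 fold change was 0.09, against 0.70 for the row alone.

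The *Arntl* locus was split most unevenly between samples. The row with the *Arntl* symbol had 10.4, 8.67 and 35.6 CPM in the *fat-1* pools, against 7.12, 34.1 and 13.5 CPM in the WT pools. It held 87.5% of the locus in *fat-1* sample 3 and 76.1% in WT sample 2, and between 18.0% and 29.6% in the other 4 samples. The row alone therefore had a 5.0-fold range over the 6 samples, but the locus sum had a 1.51-fold range, and the standard error of the log2 fold change was 0.77 for the row and 0.19 for the sum. The *Clock* and *Nr1d2* rows held steadier shares, 31.1% ± 4.71 (SD, *n* = 3) and 80.4% ± 0.648 in the *fat-1* pools, against 33.4% ± 2.27 and 81.3% ± 1.77 in the WT pools. The loci of the other 6 members had a single row.

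**Figure D4:**
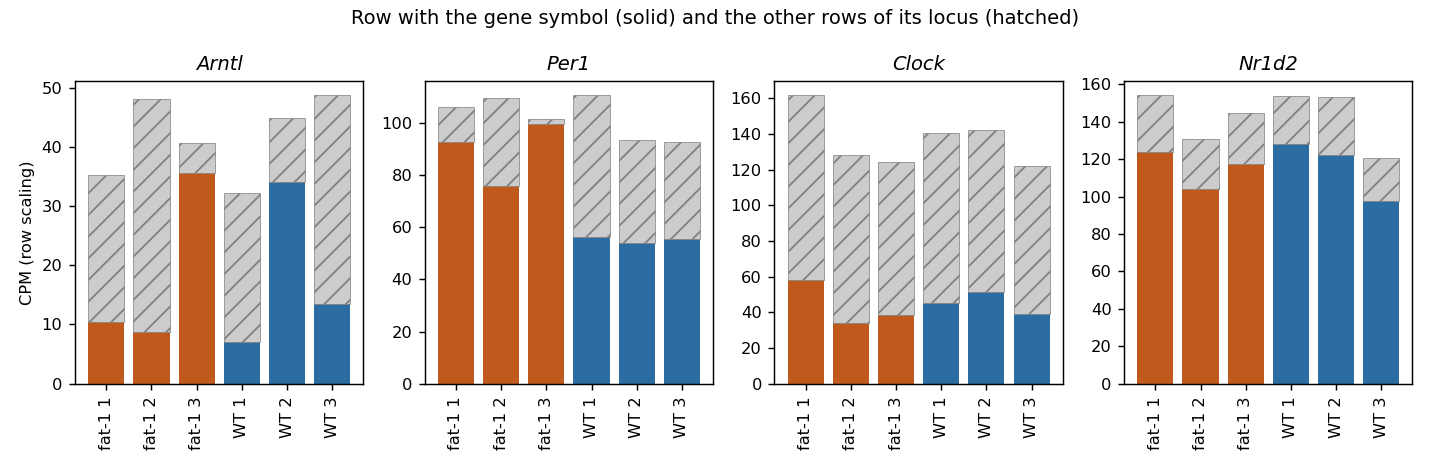
CPM of the row with the gene symbol (solid) and of the other rows of its locus (hatched), stacked for each sample, with CPM scaled as in the fit of rows. The total of *Per1* is nearly level while its solid part runs from 54.0 to 99.6 CPM, and *Arntl* is mostly solid in *fat-1* sample 3 and WT sample 2 only.

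The levels of *Per2* and *Per3* had the same order as the marker genes of mammary epithelium within each genotype, and those of *Dbp* followed them less closely. Samples were labelled as epithelial cells, and markers of luminal and basal epithelium were counted in all 6, but so were those of fibroblasts, immune and endothelial cells. The summed level of 11 luminal markers ran from 832 to 3449 CPM in the *fat-1* pools, against 890 to 2925 CPM in the WT pools. The 6 basal markers ran from 140 to 535 CPM and from 135 to 417 CPM, and the 7 immune markers from 640 to 1402 CPM and from 637 to 1452 CPM. An epithelial marker score, the mean log2(CPM + 1) of the luminal and basal markers, came to 6.55, 4.79 and 5.81 in the *fat-1* pools, against 6.67, 5.88 and 4.89 in the WT pools. The immune sum was lowest in the samples with the highest score, so the epithelial and immune content of these samples cannot be told apart. The fibroblast sum was also lowest in sample 1 of each genotype, at 1551 CPM in *fat-1* and 3332 CPM in WT. It was highest at middle scores, with 6065 CPM in *fat-1* sample 3 and 5617 CPM in WT sample 2. In such bulk samples, fewer cells of a type and less RNA per cell cannot be told apart either.

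In the fit over all loci with genotype and this score as terms, the slope on the score was tested for each locus, and 14.7% of all loci reached an adjusted *p*-value of 0.05 (8.99% with a positive slope). Of the 10 members 4 passed, 3 with a positive slope and 1 with a negative slope. *Per3* rose by 0.90 on the log2 scale for each unit of the score (standard error 0.10; adjusted *p* = 0.00435), *Per2* by 0.68 (standard error 0.09; adjusted *p* = 0.00741) and *Dbp* by 0.74 (standard error 0.18; adjusted *p* = 0.0451). *Dbp* departed from this slope in 2 samples of like score, with 11.8 CPM in *fat-1* sample 3 (score 5.81) and 5.46 CPM in WT sample 2 (score 5.88). *Arntl* had a slope of −0.29 (standard error 0.06; adjusted *p* = 0.0316), with its lowest levels in sample 1 of each genotype, where *Per2* and *Per3* were highest. The slopes of *Per1* (0.05, standard error 0.06), *Cry1* (0.12, standard error 0.09), *Cry2* (0.14, standard error 0.10) and *Nr1d1* (0.30, standard error 0.17) did not pass, nor did those of *Clock* (0.15, standard error 0.06) and *Nr1d2* (0.17, standard error 0.05). All 4 called slopes kept their sign with any 1 sample left out, but none passed in all of these fits. *Per3* lost its call without *fat-1* sample 2 (adjusted *p* = 0.0585), *Per2* without *fat-1* sample 2, WT sample 1 or WT sample 3 (0.0710, 0.0612 and 0.0560), *Dbp* without the same 3 samples (0.226, 0.286 and 0.154), and *Arntl* without *fat-1* sample 1 or 2 or WT sample 1 or 3 (0.0734, 0.148, 0.154 and 0.118). *Nr1d1* gained a call without *fat-1* sample 1 (slope 0.52, adjusted *p* = 0.0426). Without *fat-1* sample 2, 182 of all loci passed in place of 3533.

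With the score as a term, the standard error of the genotype difference fell from 0.53 to 0.14 for *Per3*, from 0.41 to 0.13 for *Per2*, from 0.49 to 0.26 for *Dbp* and from 0.19 to 0.09 for *Arntl*. The genotype difference itself then was 0.13 for *Per3*, 0.18 for *Per2*, 0.31 for *Dbp* and −0.04 for *Arntl* on the log2 scale, and 0 of the 10 members passed (adjusted *p* = 1.00 for each). What part cell content, time of collection or isolation had in these levels was not tested.

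**Figure D5:**
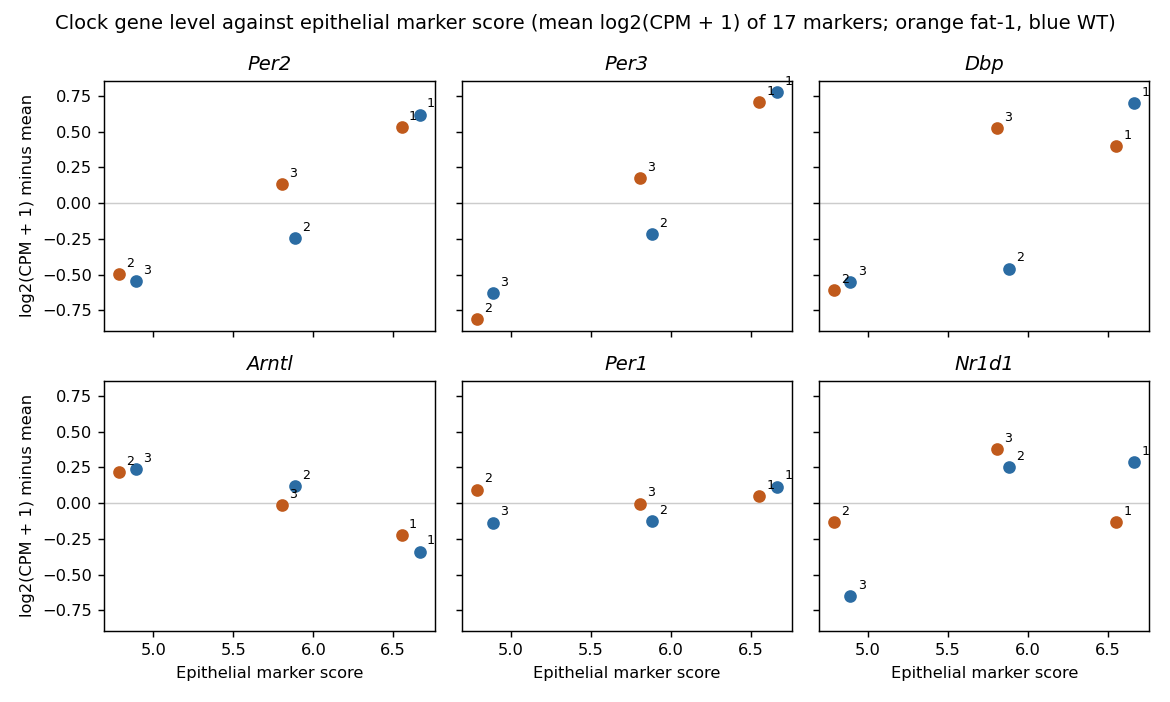
Level of 6 clock genes in each sample, as log2(CPM + 1) minus the gene's mean, against the epithelial marker score, with *fat-1* in orange, WT in blue and numbers for replicates. *Per2*, *Per3* and *Dbp* are high and *Arntl* is low in sample 1 of each genotype, whose scores are 6.55 and 6.67, and *Per1* is nearly flat.

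The other genes of the clock pathway were taken from a list of 26, all of which were tested as locus sums. In the quasi-likelihood fit, 0 of the 26 reached an unadjusted *p*-value of 0.05 in either direction, beside 1.14% of all loci. The smallest of the 26 was 0.278, and their median log2 fold change was −0.01. By group, the activators were *Npas2*, an alternative partner of ARNTL, with −0.21 (standard error 0.22), and *Arntl2*, a paralog of *Arntl*, with 0.15 (standard error 0.55). Of the 4 further repressors, *Bhlhe41* had −0.32 (standard error 0.47) and *Bhlhe40* 0.13 (standard error 0.26). Of the 4 genes of the RORE loop, the activator *Rora* had −0.08 (standard error 0.10) and the repressor *Nfil3* −0.07 (standard error 0.12). The D-box activators *Hlf* and *Tef* had −0.14 (standard error 0.19) and 0.02 (standard error 0.20). Of the 8 kinases and factors of protein turnover, *Fbxl21* had 0.51 (standard error 0.43) at 0.119 to 0.337 CPM. Of the 6 outputs, *Id2* had −0.13 (standard error 0.15) and *Klf9* −0.06 (standard error 0.12). When only the row with the symbol was used, 1 of the 26 passed before adjustment, beside 2.21% of all rows. This was *Bhlhe40*, with 162, 98.8 and 103 CPM in the *fat-1* pools, against 84.2, 89.5 and 63.6 CPM in the WT pools (unadjusted *p* = 0.0481, adjusted *p* = 1.00), whose locus had other rows.

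On the epithelial marker score, 8 of the 26 had a positive and 2 a negative slope past the adjusted threshold. Of all loci, 14.7% passed in either direction and 8.99% with a positive slope. The genes below were chosen after their values were seen. Positive slopes were those of *Arntl2* (0.95, standard error 0.08; adjusted *p* = 0.00247) and *Bhlhe41* (0.79, standard error 0.10; adjusted *p* = 0.00608), among others. *Tef*, a relative of *Dbp*, had a shallower slope of 0.33 (standard error 0.05; adjusted *p* = 0.0111). The negative slopes were those of *Timeless* (−0.65, standard error 0.10; adjusted *p* = 0.0120), which acts in DNA replication as well, and *Nampt* (−0.45, standard error 0.08; adjusted *p* = 0.0171), the enzyme of NAD synthesis. *Ciart*, another repressor of ARNTL and CLOCK, had a slope of −0.06 (standard error 0.09). Without WT sample 3, *Bhlhe41*, *Tef*, *Timeless* and *Nampt* lost their calls (adjusted *p* = 0.0672, 0.104, 0.0749 and 0.106 by the quasi-likelihood test). The same genes lost them without *fat-1* sample 2 (0.0540, 0.102, 0.0820 and 0.0691 by that test). *Tef*, *Timeless* and *Nampt* also lost them without WT sample 1 (0.0990, 0.0705 and 0.0993 by that test). *Arntl2* kept its call with any 1 sample left out.

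Over the 6 samples, the largest ranges among the members were those of *Per3* and *Dbp*, 1.59 and 1.31 on the log2(CPM + 1) scale, and 93.6% and 89.7% of the 11225 loci with a mean of at least 5 CPM had a smaller range. The *Per1* range was 0.25, and 26.5% of those loci had a smaller one. Likeness to *Per3* and *Dbp* was measured as the root mean square difference of centred log2(CPM + 1) over the 6 samples. The loci most like *Per3* were those of *Dlg3* (0.08), *Sytl1* (0.08) and *Rasd1* (0.09), and those most like *Dbp* were *Rims2* (0.08), *Gm10651* (0.17) and *Actg2* (0.18). *Rims2* had only 0.318 to 2.03 CPM, a level at which the 1 added to CPM narrows its range on this scale. Among the members themselves, *Per2* and *Per3* were nearest to each other (0.17), and the member nearest to *Dbp* was *Per2* (0.20). This measure over 6 samples ranks profiles and was given no test.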

How the data were processed

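RNA of 3 *fat-1* and 3 WT pooled samples was sequenced as paired-end reads. Mapping (HISAT2, GRCm38) and transcript assembly (StringTie) were done by the authors, who deposited unnormalized estimated counts, all of them whole numbers, for each assembled row. The conversion to counts, the annotation and the use of strand are not given in the sources used here. Rows with the same locus number before the symbol were added together. Loci (24061 after filterByExpr) and rows (30683) were tested in R 4.3.3 with edgeR 4.0.16 (quasi-likelihood test, TMM, genotype only, Benjamini–Hochberg, threshold 0.05). Standard errors were derived from the fold change and its F statistic, and 95% intervals use the fit's degrees of freedom. The total of each sample, at least 204539059 counts, leaves counting error small beside the spread between pools. The labels do not say that pools were prepared separately, so *p*-values measure the spread between these samples. The share of a locus in a row was tested with limma 3.58.1 on log2 ratios (0.5 added, mean count of at least 10 in both parts). The tests were tried on simulated counts. Alternatives were other normalizations, filters and tests (DESeq2 1.42.0, edgeR's exact test), a replicate block, an epithelial marker score and leaving out each sample. The ratio test and the slope on the score were added after the data had been seen. Members and lists were chosen with earlier results of these data known. Named in full were the members, genes sharing their loci, the 2 wider clock genes of smallest *p* per group and the 3 loci most like each of the 2 most variable members. Some genes that this rule names are not reported here. Exon lengths are from GENCODE M21 (GRCm38). Plots were made with Python 3.11.15 and matplotlib 3.10.9.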

Additional observations from a re-analysis of the deposited data

How the results depend on the processing

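Among the locus sums of the 10 members, no adjusted call was made in the main fit or under any alternative, and signs were kept by other normalizations, no filter, the older quasi-likelihood fit, edgeR's exact test, DESeq2, the replicate block and the score. With 1 sample left out, the log2 fold changes ran from −0.18 to 0.11 for *Arntl*, −0.086 to 0.10 for *Clock*, 0.05 to 0.18 for *Per1*, −0.19 to 0.56 for *Per2*, −0.36 to 0.61 for *Per3*, −0.10 to 0.14 for *Cry1*, −0.049 to 0.16 for *Cry2*, −0.20 to 0.19 for *Nr1d1*, −0.093 to 0.064 for *Nr1d2* and −0.046 to 0.79 for *Dbp*. For the rows with the symbol they ran from −0.93 to 0.82 for *Arntl*, −0.31 to 0.10 for *Clock*, 0.61 to 0.80 for *Per1* and −0.12 to 0.065 for *Nr1d2*. The *Arntl* row, at −0.00015, turned to 0.0041 with library totals only and to 0.053 with the replicate block, and the *Nr1d2* row, at −0.01, to 0.011 with the score. The *Per1* row passed with DESeq2 (0.69, adjusted *p* = 0.00588). The log2 ratios of row to rest ran from −1.21 to 1.39 for *Arntl*, −0.32 to 0.0029 for *Clock* and 1.63 to 3.83 for *Per1*, and the *Per1* slope on the score from −0.039 to 0.13.

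In place of 0 loci (274 unadjusted), edgeR's exact test called 6 and DESeq2 8, and leaving out a sample gave 0 to 1. In place of 0 rows (678 unadjusted), edgeR's exact test called 32 and DESeq2 93, and leaving out a sample gave 0 to 2. Of the wider clock genes, 1 passed before adjustment as a row and 0 as locus sums. Replicate numbers were shared by the genotypes, and the deviations of same-numbered samples correlated at 0.515, −0.10 and 0.07 over 24061 loci. Such deviations are centred on only 3 samples of each genotype, and differences in cell content also enter them. The correlations therefore cannot decide whether same-numbered samples were paired. The replicate block called 0 loci and 0 rows, and *fat-1* sample 2 correlated best with WT sample 3. The causes of these changes were not tested. With 3 pools of each genotype, the intervals of *Per2*, *Per3* and *Dbp* leave room for a difference of more than 0.9 on the log2 scale.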

Other observations

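Early genes known to be induced by cell dissociation were measured in all 6 samples, and 8 of 8 were tested. None was past an unadjusted *p*-value of 0.05 by edgeR's quasi-likelihood test, beside 1.14% of all loci. *Jun* had 346, 296 and 365 CPM in the *fat-1* pools, against 375, 335 and 290 CPM in the WT pools, and *Atf3* had between 92.4 and 106 CPM. *Egr1*, which was lowest in WT sample 3 (71.1 CPM) and *fat-1* sample 2 (78.0 CPM), differed by −0.25 on the log2 scale (standard error 0.25). The median of the 8 was −0.08.

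Of 5 genes induced by glucocorticoids, a list that holds *Per1* itself, 0 passed before adjustment, beside 1.14% of all loci. Their median log2 fold change was 0.09, which is the value of *Per1* itself. *Fkbp5*, a co-chaperone gene, had 44.7 CPM in *fat-1* sample 1 and between 24.3 and 31.4 CPM in the other 5 samples. *Zbtb16* was also highest in *fat-1* sample 1, with 13.4 CPM against 4.58 to 8.69 CPM elsewhere. *Sgk1* was highest there too, at 92.5 CPM, but close to WT sample 1 at 88.2 CPM. The list did not move together, since *Tsc22d3* was highest in WT sample 3 (57.4 CPM against 38.2 CPM in *fat-1* sample 1) and *Per1* in WT sample 1 (111 CPM).

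Of the marker lists, 0 of 11 luminal, 6 basal, 6 fibroblast, 7 immune and 5 endothelial genes reached an unadjusted *p*-value of 0.05 between the genotypes. Over all loci tested the share was 1.14%. All *fat-1* samples were below all WT samples for 2 of the endothelial markers, *Cdh5* (unadjusted *p* = 0.0541) and *Tek* (unadjusted *p* = 0.0858), beside 4.15% of all loci with groups that did not overlap. The remaining endothelial markers, *Pecam1*, *Kdr* and *Vwf*, overlapped, with log2 fold changes of −0.0031, 0.09 and −0.08. The endothelial sum overlapped as well, with 183 to 212 CPM in the *fat-1* pools against 193 to 235 CPM in the WT pools. The adipocyte sum did not overlap between the genotypes, with at most 107 CPM in *fat-1* and at least 113 CPM in WT. It was nearly all *Fabp4*, which had 112 of 113 CPM in WT sample 1, so the sum and this gene are 1 observation. Of the 5 adipocyte markers, only *Fabp4* reached an unadjusted *p*-value of 0.05 (0.0370 by edgeR's quasi-likelihood test), and its groups did not overlap. It was chosen for mention after its value was seen (log2 fold change −0.31, standard error 0.12, adjusted *p* = 1.00). *Adipoq* and *Plin1*, which define adipocytes, were at or under 0.50 CPM in every sample. The fibroblast sum ran from 1551 to 6065 CPM in the *fat-1* pools, against a range from 3332 to 5617 CPM in the WT pools, with its lowest value in *fat-1* sample 1, where the epithelial score was high.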
